A study of Homo sapiens with 12 samples.

Results

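The enzymes described here supply deoxynucleotides for DNA synthesis, and they include targets and activators of nucleoside drugs and of 5-fluorouracil. They are DCK (deoxycytidine kinase), TK1 (thymidine kinase of the cytosol), TYMS (thymidylate synthase), RRM1 and RRM2 (the large and small subunits of ribonucleotide reductase), DUT (dUTPase), DTYMK (thymidylate kinase), SAMHD1 (a deoxynucleotide triphosphohydrolase) and GMPS (GMP synthetase). These 9 genes were chosen for their function among the 34595 genes with a value in the expression table. DCK was also among the genes that separated CD133+ from CD133- cells in this study, so the comparison of the fractions took part in the choice of the genes and is given for them as a description, without a test.

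The cells came from 3 gastric cancer (GC) cell lines, KATO-III, SNU-216 and SNU-601, each sorted into a CD133+ and a CD133- fraction before its expression was measured. CD133, the product of PROM1, is a surface glycoprotein used as a stem cell marker in several tumors. The 6 populations (each line as CD133+ and as CD133-) were each measured on 2 Illumina HT-12 v3 BeadChips, 12 arrays in all. The study asked which genes differ between the fractions. All 3 lines were grown in RPMI1640 medium with calf serum, and the labels name no drug and no genetic change. The CD133+ fraction was the brightest 10% of the stained cells and the CD133- fraction the dimmest 6%, so cells between these gates were not measured. The design text names SNU201 where the labels of the arrays name SNU-216, and the labels were used. Whether the 2 arrays of a population came from separate cultures or sorts is not stated, so the p-values below measure the spread between arrays, which may be technical. For the comparison of the fractions over the lines, that spread also holds the variation of the difference between lines.

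Cells obtain deoxynucleotides by reducing ribonucleotides, which ribonucleotide reductase does, or by salvage, in which kinases such as DCK and TK1 phosphorylate deoxynucleosides taken up from outside. TYMS makes dTMP from dUMP, DUT makes that dUMP by cleaving dUTP and so keeps uracil out of DNA, and DTYMK carries dTMP on to dTDP. SAMHD1 breaks deoxynucleotides down, and GMPS makes GMP, the guanine ribonucleotide from which dGTP is later drawn. DCK is the kinase that activates cytarabine and gemcitabine, TYMS is the enzyme that metabolites of 5-fluorouracil block, and RRM2 is the subunit that hydroxyurea inactivates. Transcripts of TK1, TYMS, RRM2 and DUT are known to be more abundant in dividing cells around S phase.

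Promoter sequence is shown for genes whose patterns over the populations are set side by side further on, the leading gene DCK and both subunits of the reductase among them. RefSeq start sites on GRCh38.p14 were found for 9 of 9 genes. Searched on both strands were CCAAT (the box that NF-Y binds), the GC box GGGCGG, and 3 spellings of the E2F site (TTTGGCGC, TTTCGCGC and TTTCCCGC), from 250 bases before to 50 bases after the start, and no matches overlapped each other. Of 35116 promoters of the same length, 34.6% held CCAAT, 45.0% GGGCGG, 0.652% TTTGGCGC, 0.515% TTTCGCGC and 1.63% TTTCCCGC. The 250 bases before the start of DCK, at chr4:70993399-70993648 on the plus strand, and of RRM1, at chr11:4094435-4094684 on the plus strand, are given 5′ to 3′ with the matches in capitals.
DCK: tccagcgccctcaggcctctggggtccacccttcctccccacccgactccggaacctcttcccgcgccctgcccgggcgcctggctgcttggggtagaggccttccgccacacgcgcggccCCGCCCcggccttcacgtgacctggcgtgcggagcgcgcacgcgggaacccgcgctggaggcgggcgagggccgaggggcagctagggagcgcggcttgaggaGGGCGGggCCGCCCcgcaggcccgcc
RRM1: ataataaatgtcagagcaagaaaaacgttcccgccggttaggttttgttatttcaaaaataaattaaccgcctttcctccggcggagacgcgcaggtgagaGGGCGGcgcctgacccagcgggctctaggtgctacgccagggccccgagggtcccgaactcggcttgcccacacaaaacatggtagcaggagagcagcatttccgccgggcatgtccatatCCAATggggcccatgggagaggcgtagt
The DCK sequence held 3 GC boxes and no CCAAT, and the RRM1 sequence held 1 GC box and 1 CCAAT.

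Shorter stretches around single matches are given for genes above background on the arrays with an E2F spelling or with repeated CCAAT, again with the match in capitals, and their distances are counted from the start site.
DCK, TTTGGCGC read on the opposite strand, at position 22 of the transcript: gcctccgcGCGCCAAAgtcaaacc
DUT, TTTGGCGC at -27: atttcggtTTTGGCGCgctccctg
DUT, TTTCCCGC read on the opposite strand at -42: cggggctgGCGGGAAAtttcggtt
TYMS, TTTCCCGC read on the opposite strand at -39: ggacggccGCGGGAAAaggcgcgc
RRM2, the nearest of 3 CCAAT, at -66: caccaaagCCAATgggaaggg
TK1, the nearest of 2 CCAAT, read on the opposite strand at -46: ggctcgtgATTGGccagcacg
Both subunits of ribonucleotide reductase held CCAAT, 3 copies for RRM2 (at -123, -93 and -66) and 1 for RRM1 (at -28), and neither held an E2F spelling in this window. DTYMK (at -92 and -24) and SAMHD1 (at -49 and -38) held 2 CCAAT each and are not shown. Where RefSeq lists several starts (4 for DUT, 2 for RRM2 and 2 for TK1), the most downstream one was used. A match describes the letters in the window and is not a measured binding site.

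The values are linear, background-subtracted intensities, and a value under a floor of 32.7 (1% of all intensities lay further than this below 0) was taken as not above background. Of the 9 genes, 7 were above the floor on all 12 arrays. DTYMK was above the floor on no array (-10.5 to 20.4), and SAMHD1 on 1 array, the first of KATO-III CD133+ (49.9), with the other 11 between -14.2 and 24.5. Both are below what this table could measure, and neither was tested. Of all 34595 genes, 58.2% exceeded the floor on 2 or more arrays, and p-values were adjusted over these 20147.

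PROM1 followed the sort in each line. In KATO-III its mean intensity was 9179.9 ± 471 (SD, n = 2) in the CD133+ and 4275 ± 309 in the CD133- fraction. SNU-216 had means of 9023 ± 353 and 2225 ± 8.80, and SNU-601 of 4777 ± 141 and 1319.9 ± 6.44. The cells sorted as CD133- from KATO-III thus held more PROM1 signal than those of the other lines and nearly as much as the CD133+ cells of SNU-601. All 5 epithelial markers (EPCAM, CDH1, KRT8, KRT18 and KRT19) were above the floor on the 12 arrays, with EPCAM between 9423 and 14168. PTPRC and CD3E of the 5 leukocyte markers were above it on no array, as were 3 of the 5 fibroblast and endothelial markers. LYZ, which some epithelia also make, was above it on 8 arrays (up to 10021) and CD14 on 6 (up to 1242). The arrays resembled one another in overall level, with medians of 26.0 to 27.1 and 16320 to 16474 genes above the floor.

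In every line, DCK was higher in the CD133+ than in the CD133- fraction. In KATO-III, the arrays of CD133+ cells gave 1395 and 1287 and those of CD133- cells 977 and 991. In SNU-216, the values were 1617 and 1956 against 976 and 924. In SNU-601, they were 1349 and 1297 against 1006 and 987. The 6 CD133+ arrays (1287 to 1956) lay above the 6 CD133- arrays (924 to 1006) without overlap, and DCK was the only one of the 7 measured genes for which this held. Of all genes tested, 0.352% showed that separation.

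The log2 difference of DCK between CD133+ and CD133- cells was 0.45 in KATO-III (1.36-fold), 0.91 in SNU-216 (1.87-fold) and 0.41 in SNU-601 (1.33-fold), and 0.59 over the lines (1.50-fold, SE 0.0918). Its signal-to-noise ratio (SNR), the difference of the means of the fractions over the sum of their SDs, was 1.75, and the other 6 genes above background had SNRs between 0.319 (RRM2) and 0.583 (DUT), below the threshold of 1 that the study used for upregulated genes. Of the genes tested, 0.586% had an SNR above 1. Within SNU-216 CD133+ the arrays of DCK spread more than elsewhere, with an SD of 240.0 around 1786 against SDs of 9.98 to 76.4 in the other 5 populations, and the SNU-216 difference was 0.77 without replicate 2 and 1.04 without replicate 1. In a bulk sample a higher share of cells with a transcript cannot be told apart from more of it in each cell.

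The CD133- populations had the 3 lowest means of DCK. In order, the means were 1786 in SNU-216 CD133+, 1341 ± 76.4 in KATO-III CD133+, 1323 ± 36.8 in SNU-601 CD133+, 996 ± 13.3 in SNU-601 CD133-, 984 ± 9.98 in KATO-III CD133- and 949.8 ± 36.7 in SNU-216 CD133-. The arrays of KATO-III CD133+ and SNU-601 CD133+ overlapped, as did those of SNU-601 CD133- and KATO-III CD133-. SNU-216 thus stood first among the CD133+ and last among the CD133- cells.

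**Figure D1:**
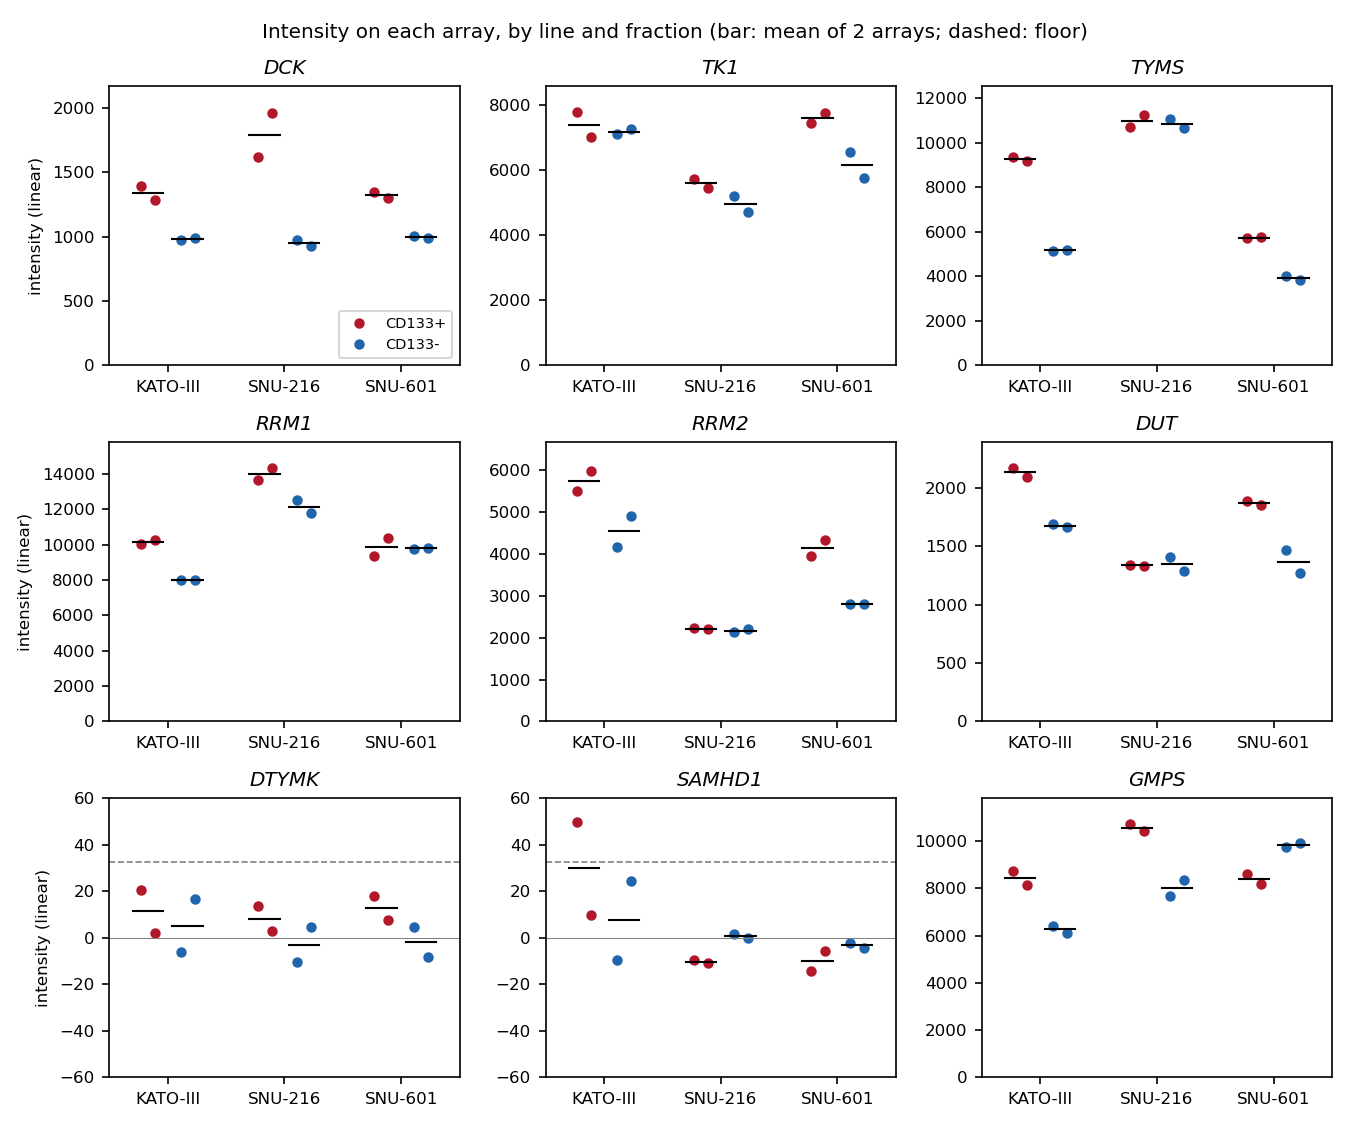
Linear intensity on each of the 12 arrays for the 9 genes, by line (points, red for CD133+ and blue for CD133-). Bars are means of 2 arrays, and the floor of 32.7 is dashed in the panels of DTYMK and SAMHD1 only. DCK separates the fractions in every line, TYMS, RRM2 and DUT do so in KATO-III and SNU-601 but overlap in SNU-216, and DTYMK and SAMHD1 stay near background.

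TK1, the kinase of thymidine, showed smaller differences between the fractions than DCK in each line. KATO-III gave 7789.9 and 7004 in the CD133+ and 7102 and 7253 in the CD133- fraction, which overlapped. SNU-216 gave 5711 and 5462 against 5203 and 4709, and SNU-601 gave 7439 and 7765 against 6548 and 5741. The CD133+ arrays were above the CD133- arrays in the last 2 of these lines, with log2 differences of 0.17 and 0.31, and the difference in KATO-III was 0.04.

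TYMS differed between the fractions in KATO-III and SNU-601 and hardly in SNU-216. KATO-III gave 9364 and 9153 in CD133+ against 5142 and 5190.1 in CD133- cells, a log2 difference of 0.84 (1.79-fold). SNU-601 gave 5733 and 5748 against 4005 and 3844, a log2 difference of 0.55 (1.46-fold). In SNU-216 the values were 10687 and 11242 against 11074 and 10641, which overlapped, with a log2 difference of 0.01. The CD133+ cells of KATO-III lay nearer to the level of SNU-216, and its CD133- cells nearer to that of SNU-601.

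The subunits of ribonucleotide reductase did not follow the same pattern. RRM1 gave 10052 and 10235 in CD133+ against 7979 and 7975 in the CD133- fraction of KATO-III, 13646 and 14309.8 against 12506 and 11765 in SNU-216, and 9374 and 10348 against 9752 and 9799.7 in SNU-601. Its log2 differences were 0.35, 0.20 and 0.01, and the arrays of SNU-601 overlapped. RRM2 gave 5510.2 and 5988 against 4177 and 4898 in KATO-III, 2232 and 2199 against 2129 and 2214 in SNU-216, and 3962 and 4339 against 2797 and 2813 in SNU-601. Its log2 differences were 0.34, 0.03 and 0.56, and here the arrays of SNU-216 overlapped. Both subunits separated the fractions without overlap in KATO-III, RRM1 alone did in SNU-216, and RRM2 alone did in SNU-601.

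DUT, which yields the substrate of TYMS, resembled TYMS and RRM2. It gave 2169 and 2094 in CD133+ against 1686 and 1663 in the CD133- fraction of KATO-III, 1342 and 1334 against 1407 and 1284 in SNU-216, and 1883 and 1854 against 1469 and 1266 in SNU-601. The log2 differences were 0.35, -0.01 and 0.45, and the fractions of SNU-216 overlapped.

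GMPS had opposite differences in the lines. CD133+ cells gave 8746 and 8136 against 6414 and 6120.5 in KATO-III, and 10719 and 10424 against 7679 and 8344 in SNU-216. In SNU-601 the CD133+ arrays, at 8617 and 8175, lay below the CD133- arrays, at 9764 and 9929.8. The log2 differences were 0.43, 0.40 and -0.23.

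Counted over the 7 genes, the log2 difference was above 0 in all 3 lines for 5 (DCK, TK1, TYMS, RRM1 and RRM2), as it was for 10.1% of the genes tested. Within a line, both arrays of the CD133+ fraction lay above both of the CD133- fraction for 32.7% of all genes in KATO-III, 30% in SNU-216 and 26.6% in SNU-601, and below them for 38%, 31% and 28.3%. The median over the 7 was 0.35 in KATO-III, 0.17 in SNU-216, 0.41 in SNU-601 and 0.27 over the lines, beside medians of 0.00, 0.00, 0.00 and -0.01 for all genes tested.

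**Figure D2:**
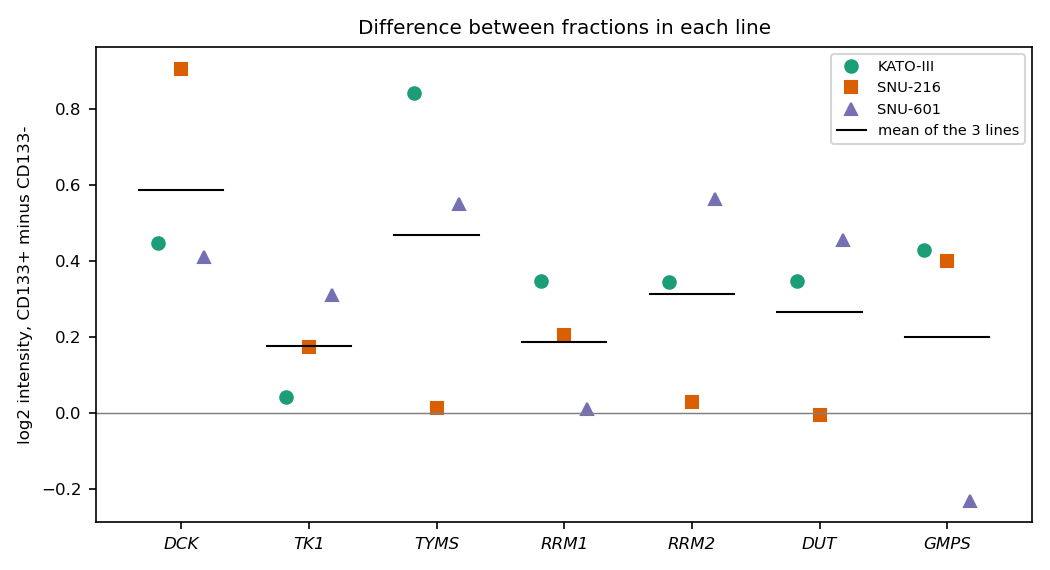
Log2 intensity of CD133+ minus CD133- cells (y axis) for the 7 genes above background, in each line (points) and as the mean of the 3 lines (bar). DCK lies at 0.41 or above in every line, TYMS, RRM2 and DUT are near 0 in SNU-216, and GMPS is at -0.23 in SNU-601.

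The differences between the lines were tested with limma on the mean of both fractions. For DCK they are not independent of its choice, since the SDs in the SNR are taken over the lines. Of 21 comparisons (7 genes, 3 pairs of lines), 18 had an adjusted p below 0.05. All 7 genes differed between KATO-III and SNU-216, 5 between KATO-III and SNU-601, and 6 between SNU-216 and SNU-601. The lines differed widely in general, since 62%, 58.6% and 56.5% of all genes tested passed in these comparisons. With the arrays of each population averaged, 3 of the 18 passed, RRM1 and RRM2 between KATO-III and SNU-216 and TYMS between SNU-216 and SNU-601. With the population as a random block 11 passed, and those lost were both differences of DCK and of GMPS, 2 of the 3 of DUT, and RRM1 between KATO-III and SNU-601. Comparisons of lines within a fraction, given below, were added after the values were seen. Set side by side, they do not test whether the difference between fractions varies by line.

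RRM2 showed the largest difference of KATO-III from SNU-216 among the 7 genes. Its mean was 5143 in KATO-III, 3478 in SNU-601 and 2193 in SNU-216. KATO-III exceeded SNU-216 by 1.22 on the log2 scale (2.32-fold, SE 0.0552, adjusted p = 5.09e-08), and exceeded SNU-601 by 0.58 (adjusted p = 1.31e-05). RRM1 ran the other way, with means of 13057 in SNU-216, 9818 in SNU-601 and 9061 in KATO-III. RRM1 in KATO-III was below SNU-216 by a log2 difference of -0.53 (SE 0.0384, adjusted p = 1.46e-06) and below SNU-601 by -0.13 (adjusted p = 0.0193). The small and the large subunit thus had opposite orders over the 3 lines. The smaller RRM1 difference missed the threshold without KATO-III CD133+ replicate 1 (-0.12, adjusted p = 0.0543) and without SNU-601 CD133+ replicate 2 (-0.09, adjusted p = 0.0598), and among the CD133+ arrays alone it was 0.04 (adjusted p = 0.562).

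TYMS was highest in SNU-216, with a mean of 10911, against 7212 in KATO-III and 4833 in SNU-601. SNU-216 exceeded SNU-601 by 1.20 (2.30-fold, SE 0.0298, adjusted p = 7.06e-10), and KATO-III exceeded SNU-601 by 0.54 (adjusted p = 2.77e-07). The difference of KATO-III from SNU-216 was -0.66 over both fractions (adjusted p = 5.02e-08), -0.24 among the CD133+ arrays (adjusted p = 0.000813) and -1.07 among the CD133- arrays (adjusted p = 3.01e-08).

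TK1 and DUT were lowest in SNU-216, as RRM2 was. TK1 was higher in KATO-III than in SNU-216 by 0.47 (1.38-fold, adjusted p = 5.13e-05) and lower in SNU-216 than in SNU-601, with a difference of -0.38 (adjusted p = 0.000244). KATO-III and SNU-601 did not differ detectably in TK1 (0.09, 95% interval -0.03 to 0.22, adjusted p = 0.186). DUT was higher in KATO-III than in SNU-216 by 0.49 (1.41-fold, adjusted p = 1.81e-05) and than in SNU-601 by 0.24 (adjusted p = 0.00239). The DUT difference of SNU-216 from SNU-601 was -0.25 (adjusted p = 0.00186), and it was -0.48 among the CD133+ arrays (adjusted p = 0.000321) and -0.02 among the CD133- arrays (adjusted p = 0.884).

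The largest difference of DCK between lines was smaller than those of the other 6 genes. A high SNR favors genes with a small spread between lines, so this ranking is a description. Over both fractions SNU-216 was above KATO-III (KATO-III minus SNU-216, -0.18, SE 0.0597, adjusted p = 0.0267) and above SNU-601 (0.18, adjusted p = 0.0289), and KATO-III and SNU-601 did not differ detectably (0.00, 95% interval -0.14 to 0.14, adjusted p = 1). Among the CD133+ arrays alone, SNU-216 exceeded SNU-601 by 0.43 (limma, adjusted p = 0.00206), and KATO-III was below SNU-216 by -0.41 (adjusted p = 0.00244). The values of DCK in each fraction took part in its choice, so its p-values within a fraction are descriptive. Among the CD133- arrays the 3 differences were 0.05, -0.02 and -0.07 (adjusted p = 0.685, 0.949 and 0.566), with an SE of 0.0844 each. The differences over both fractions depended on single arrays. The first missed the threshold in 5 of the 12 fits that left out 1 array, those without KATO-III CD133+ replicate 2 (-0.15, adjusted p = 0.0909), KATO-III CD133- replicate 1 (-0.17) or 2 (-0.18), SNU-216 CD133+ replicate 2 (-0.11) or SNU-216 CD133- replicate 1 (-0.16). The second missed it without SNU-216 CD133+ replicate 2 (0.11, adjusted p = 0.0685), SNU-216 CD133- replicate 1 (0.16), SNU-601 CD133+ replicate 2 (0.16) or SNU-601 CD133- replicate 1 (0.19) or 2 (0.17).

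Among all genes, 57.5%, 55.2% and 50.6% passed in the 3 comparisons of lines among the CD133+ arrays, and 52.4%, 47.8% and 52.6% among the CD133- arrays, in the order KATO-III minus SNU-216, KATO-III minus SNU-601 and SNU-216 minus SNU-601.

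GMPS was lower in KATO-III than in SNU-216 (-0.34, adjusted p = 5.06e-05) and than in SNU-601 (-0.32, adjusted p = 8.27e-05). Both calls were lost with averaged arrays (adjusted p = 0.249 for the first) and with the random block. SNU-216 and SNU-601 did not differ detectably (0.02, 95% interval -0.07 to 0.11, adjusted p = 0.777). By fraction, the difference of KATO-III from SNU-601 was 0.01 among the CD133+ arrays (adjusted p = 0.978) and -0.65 among the CD133- arrays (adjusted p = 1.06e-05). SNU-216 was above SNU-601 among the CD133+ arrays, by 0.33 (adjusted p = 0.000785), and below it among the CD133- arrays, at -0.30 (adjusted p = 0.00146).

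**Figure D3:**
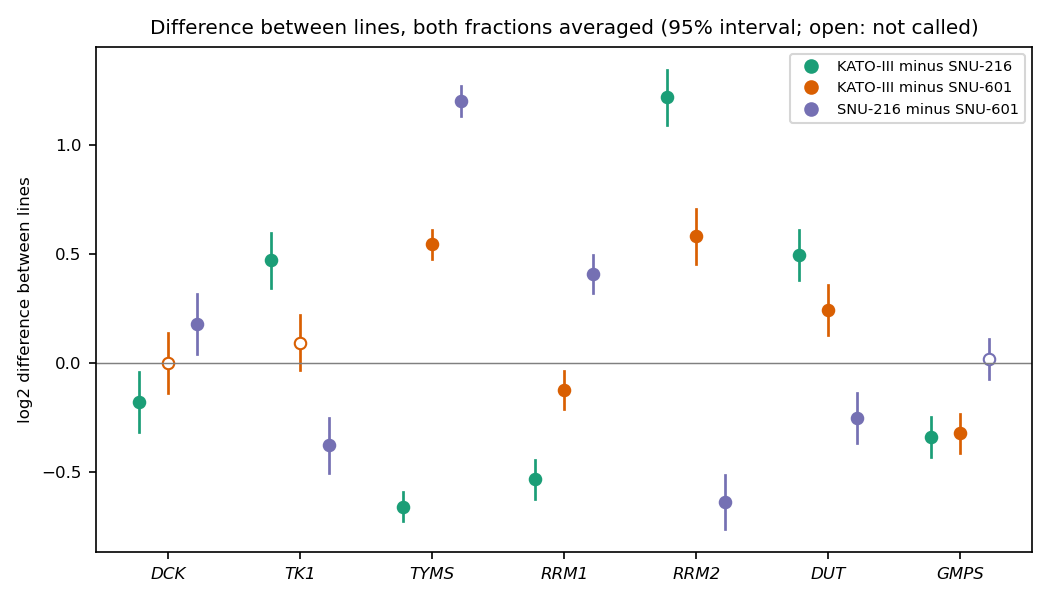
Log2 difference between lines (y axis), averaged over both fractions, for the 7 genes above background, with 95% intervals and open points where limma's adjusted p was not below 0.05. RRM2 and DUT are highest in KATO-III, TYMS and RRM1 in SNU-216, and the intervals of the 3 open points include 0.

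Over the means of the 6 populations, on the log2 scale, RRM2 and DUT varied together most closely (r = 0.948), followed by TK1 and RRM2 (r = 0.926) and TK1 and DUT (r = 0.870). RRM1 went with TYMS (r = 0.761) and GMPS (r = 0.724) and against RRM2 (r = -0.721) and TK1 (r = -0.717). DCK was near 0 with RRM2 (r = -0.0148), TK1 (r = 0.114) and DUT (r = 0.155), and higher with TYMS (r = 0.474), RRM1 (r = 0.569) and GMPS (r = 0.582). These correlations describe 6 points from 3 lines that share a normalization. Of 11673 other genes above the floor on every array, those most like DCK by r over the 6 points were ALG8 (0.997), a glucosyltransferase of N-glycan assembly, HS.551330 (0.954), GTF2H2B (0.951), MRPL39 (0.950), a protein of the mitochondrial ribosome, and NCRNA00120 (0.938). GTF2H2B belongs to a family of near-identical copies, so its probe may read more than 1 gene. HS.551330 and NCRNA00120 were dim, with population means of 52.1 to 97.1 and of 38.9 to 141. By Spearman's rank correlation 0 of these 5 stayed among the 5 most like DCK.

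Around these enzymes, 71 other genes of nucleotide supply were followed, of which 69 were tested. Their comparison between the fractions was tested with limma, with the line as a block. Of the 69, 7 were higher and 1 was lower in the CD133+ fraction, 11.6% in all, beside 4.73% of all genes tested. Their median log2 difference was 0.05, beside -0.01 for all genes. The list was made with earlier results of these data known, so the 2 shares are a description. The share of all genes also depends on dim genes. In a fit of only the 11674 genes above the floor on all 12 arrays, 1238 passed, and the count for the listed genes in that fit is given below. The higher genes were PRPS1, PRPS2 and PAICS of purine synthesis, CTPS of pyrimidine synthesis, MTHFD2 of the mitochondrial folate cycle, GLRX (glutaredoxin, an electron donor of ribonucleotide reductase) and NUDT1, which clears oxidized purine nucleotides. The lower gene was UPP1, a uridine phosphorylase.

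PRPS1 makes phosphoribosyl pyrophosphate, the sugar donor of nucleotide synthesis. It gave 4517 and 4188 in CD133+ against 3139 and 2929.8 in the CD133- fraction of KATO-III, 1940.0 and 2042 against 1442 and 1189.5 in SNU-216, and 1479 and 1578 against 1347 and 1238 in SNU-601. The arrays did not overlap within any line, and PRPS1 rose by 0.46 over the lines (1.37-fold, SE 0.0769, adjusted p = 0.0142). Its relative PRPS2 rose by 0.38 (adjusted p = 0.0417), and PAICS, an enzyme of the purine ring, by 0.24 (adjusted p = 0.0437). In KATO-III, SNU-216 and SNU-601 the differences were 0.46, 0.64 and 0.03 for PRPS2 and 0.45, 0.20 and 0.08 for PAICS. GLRX gave 3708 and 4024 against 3190.3 and 3031 in KATO-III, 1563 and 1595 against 1134 and 1037 in SNU-216, and 4578 and 4652 against 3973 and 3798 in SNU-601. It rose by 0.37 over the lines (1.29-fold, SE 0.0610, adjusted p = 0.0137), and was the only one of the 69 that was called in all 3 lines in the same direction (0.31, 0.54 and 0.25).

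NUDT1 rose by 0.40 (adjusted p = 0.0221), CTPS by 0.39 (adjusted p = 0.0252) and MTHFD2 by 0.36 (adjusted p = 0.0426). MTHFD2 had differences of 0.29 in KATO-III, 0.71 in SNU-216 and 0.08 in SNU-601. UPP1 gave 566 and 497 in CD133+ against 849 and 880.1 in the CD133- fraction of KATO-III, 872 and 917 against 1845 and 1733 in SNU-216, and 556 and 535 against 563 and 619 in SNU-601. UPP1 fell by 0.61 over the lines (1.52-fold lower, SE 0.127, adjusted p = 0.028). Without any one of the KATO-III arrays 2 genes passed, and without any one of the SNU-216 arrays 3 or 4 did. With the arrays of each population averaged, or with the population as a random block, 0 of the 69 passed (limma; 5 and 16 at an unadjusted p under 0.05).

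**Figure D4:**
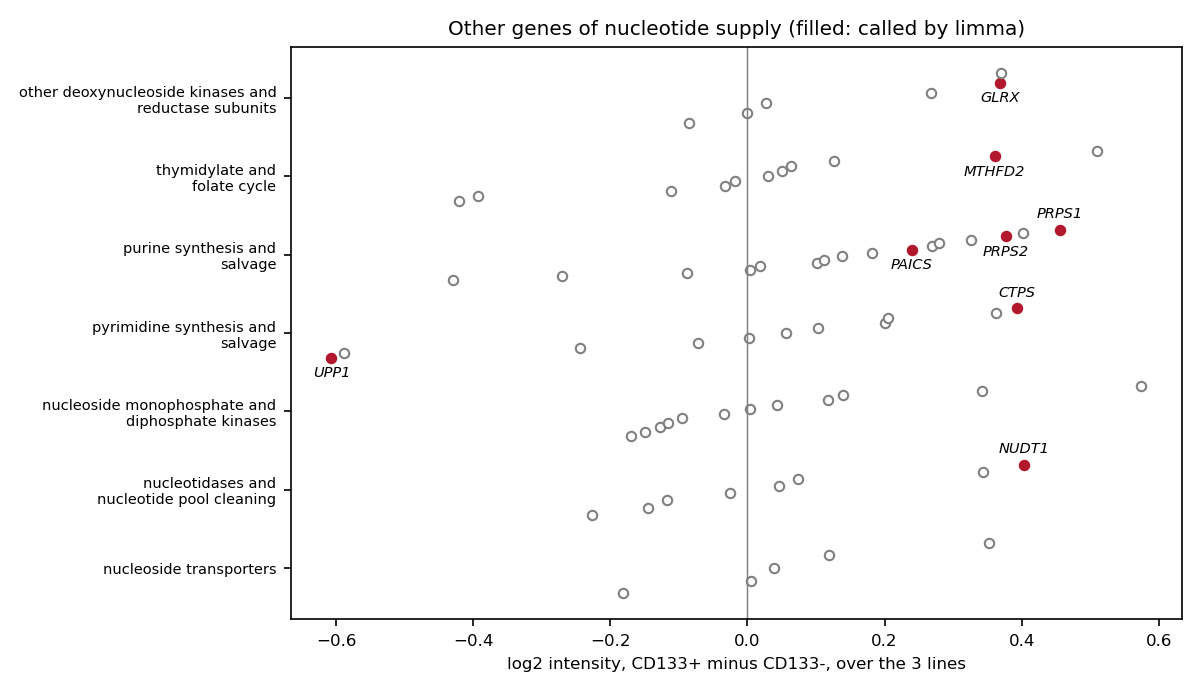
Log2 intensity of CD133+ minus CD133- cells over the 3 lines (x axis) for the 69 tested genes of nucleotide supply, grouped by function, with the 8 genes that passed limma's adjusted p of 0.05 filled and named. PRPS1 is the highest of the filled points at 0.46 and UPP1 the only one below 0, at -0.61.

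By group, purine synthesis and salvage had 3 of 16 genes higher over the lines, with a median of 0.16, and none lower. Within lines, 9 of the 16 were higher and 2 lower in KATO-III, 8 higher and 2 lower in SNU-216, and 2 higher and 2 lower in SNU-601. PPAT, which opens purine synthesis, rose in KATO-III (0.37, adjusted p = 0.00393) and SNU-216 (0.48, adjusted p = 0.00151) and fell in SNU-601 (-0.44, adjusted p = 0.00499). GART, which acts later on the same route, rose in KATO-III (0.17, adjusted p = 0.0101) and SNU-216 (0.48, adjusted p = 7.76e-05) and fell in SNU-601 (-0.35, adjusted p = 0.00115). GMPS, at the end of that route, had differences of 0.43, 0.40 and -0.23 in the same lines. PFAS had another pattern, and rose in KATO-III (0.67, adjusted p = 6.06e-05) and SNU-601 (0.61, adjusted p = 0.000657), with a value of -0.08 in SNU-216.

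The thymidylate and folate group had 1 of 11 genes higher over the lines (median 0.03), and pyrimidine synthesis and salvage 1 higher and 1 lower of 11 (median 0.06). The other deoxynucleoside kinases and reductase subunits had 1 of 6 higher (median 0.15), nucleotidases and pool cleaning 1 of 8 higher (median 0.01), and the 12 nucleotide kinases and 5 nucleoside transporters tested had 0 (medians -0.01 and 0.04). Within lines, 26 of the 69 were higher and 14 lower in KATO-III (58.0%, beside 39.3% of all genes), 17 higher and 13 lower in SNU-216 (43.5%, beside 28.6%), and 8 higher and 5 lower in SNU-601 (18.8%, beside 16.4%). At least 1 line called 49 of the 69, and 10 were called in opposite directions in different lines. The same counts were not made over all genes, so they describe the 69 only. The difference between the fractions differed between lines for 42 of the 69 (60.9%, beside 44.4% of all genes) by limma's interaction test. Among them were TXNRD1, SLC19A1, PPAT, GART, AK3, NME3, NT5C, NT5C3 and SLC29A2.

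In KATO-III, the genes with large rises included CMPK2 (0.95, adjusted p = 0.0304), CMPK1 (0.92, adjusted p = 0.000445) and the folate carrier SLC19A1 (0.69, adjusted p = 0.00286). CMPK1, the kinase of CMP and UMP, also acts on dCMP, the product of DCK, and it gave 1300.3 and 1258 in CD133+ against 721 and 632 in CD133- cells. CMPK2 was close to background (97.0 and 50.5 against 40.2 and 25.0), so that the size of its rise depends on the floor. It missed the threshold without either replicate of KATO-III CD133- (1.10 and 0.80) or without replicate 1 of CD133+ (0.48, adjusted p = 0.188). Those with large falls included UPP1 (-0.71, adjusted p = 0.000123), ADSSL1 (-0.49, adjusted p = 0.0182) and the transporter SLC29A3 (-0.48, adjusted p = 0.0201). The adjusted p of the last 2 passed 0.05 without 1 or another array of KATO-III, with values of -0.39 and -0.43 for ADSSL1 and -0.43 to -0.52 for SLC29A3.

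SNU-216 held the largest change, that of CDA, cytidine deaminase, which inactivates cytarabine and gemcitabine, the drugs that DCK activates. CDA gave 337 and 320.3 in CD133+ against 1331 and 1439 in CD133- cells of SNU-216, and fell by 2.07 (4.21-fold lower, SE 0.125, adjusted p = 1.08e-05). In SNU-601 it gave 232 and 202 against 193 and 159 (0.31, adjusted p = 0.143), and in KATO-III it was not above the floor on any array. DPYD, which breaks down 5-fluorouracil, was above the floor only in SNU-216, where it gave 803 and 586 against 350.1 and 298 and rose by 1.09 (2.12-fold, adjusted p = 0.00118). Also higher there were MTHFD2 (0.71, adjusted p = 1.03e-05), TXNRD1 (0.68, adjusted p = 8.34e-06), PRPS2 (0.64, adjusted p = 0.000198) and PRPS1 (0.60, adjusted p = 0.00132). UPP1 fell by 1.00 (adjusted p = 3.82e-05), the dCMP deaminase DCTD by 0.91 (adjusted p = 0.00013), IMPDH1 by 0.86 (adjusted p = 1.43e-05) and the ectonucleotidase NT5E by 0.82 (adjusted p = 0.0201). NT5E missed the threshold without any one array of SNU-216, with values of -0.78 to -0.87.

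SNU-601 had the fewest and smallest changes. PFAS rose by 0.61, the thymidine phosphorylase TYMP by 0.56 (adjusted p = 0.038), NME3 by 0.51 (adjusted p = 0.000311), adenosine deaminase ADA by 0.47 (adjusted p = 0.00176) and the nucleotidase NT5C by 0.33 (adjusted p = 0.00254). PPAT fell by 0.44, GART by 0.35, the thioredoxin reductase TXNRD1 by 0.25 (adjusted p = 0.00309) and AK3 by 0.19 (adjusted p = 0.0266). TYMP lay between 76.8 and 127 on the 12 arrays and missed the threshold without any one of the 4 KATO-III arrays (0.56 each), without SNU-601 CD133+ replicate 1 (0.54) or 2 (0.57), and without SNU-601 CD133- replicate 1 (0.40). AK3 missed it without 3 of the 4 SNU-601 arrays, namely CD133+ replicate 1 (-0.22) or 2 (-0.16) and CD133- replicate 2 (-0.16).

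Markers of dividing cells were compared between the fractions as well. Of all genes tested, 2.62% passed as higher in the CD133+ fraction over the lines, 18.7% in KATO-III, 14.6% in SNU-216 and 8.59% in SNU-601, and 2.11%, 20.6%, 14% and 7.78% passed as lower. Of 12 S phase markers, 2 passed as higher over the lines (median 0.17) and 0 as lower, with 7 higher and 1 lower in KATO-III, 5 higher and 1 lower in SNU-216, and 4 higher in SNU-601. Their summed intensity was 57493 to 57884 in CD133+ against 49748 to 49921 in the CD133- fraction of KATO-III, 66335 to 67743 against 62273 to 62548 in SNU-216, and 37946 to 39369.7 against 33942 to 35153 in SNU-601. PCNA, a clamp of the replication fork, rose in KATO-III (1.65, adjusted p = 0.000265) and SNU-216 (0.67, adjusted p = 0.0397), and its value was 0.01 in SNU-601. Of 10 mitosis markers, 3 were higher and 0 lower over the lines (median 0.21), with 6 higher and 1 lower in KATO-III, 1 lower in SNU-216 and 8 higher in SNU-601. Their medians by line were 0.32, 0.00 and 0.47, and those of the S phase markers were 0.29, 0.15 and 0.09. The log2 differences were 0.34, 0.03 and 0.56 for RRM2 and 0.45, 0.91 and 0.41 for DCK. The summed intensity of the mitosis markers was 39865 to 40232 in CD133+ against 34872 to 37085 in the CD133- fraction of KATO-III, 52709 to 54932 against 54123 to 55594 in SNU-216, and 46884 to 48436 against 34795 to 34826 in SNU-601. Over the lines, 0 of all genes passed with averaged arrays (limma; 992 at an unadjusted p under 0.05) and 1 with the random block. MKI67 did not pass the test in any line (-0.31, -0.16 and 0.01). The part of these markers in the differences of the supply enzymes was not tested.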

How the data were processed

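Total RNA of the sorted cells was amplified, labeled with biotin and hybridized to Illumina HT-12 v3 BeadChips. The authors deposited quantile-normalized intensity values on a linear scale, with a background subtracted (32.1% are at or below 0) and a row per gene symbol. BeadStudio is named in the submitters' processing notes, and the way in which several probes became 1 value is not given in the sources used here. Of 34688 rows, 93 were empty on every array.

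Intensities below the floor of 32.7 were set to the floor, log2 was taken, and 20147 genes that exceeded it on 2 or more arrays entered limma 3.58.1 (R 4.3.3), with a mean-variance trend and Benjamini-Hochberg adjustment over all of them. Lines, fractions within lines and their interaction were contrasts of the means of the 6 populations (6 residual degrees of freedom). The fractions over the lines were compared with the line as a block (8 residual degrees of freedom). The comparison of the fractions was tested for the other genes of nucleotide supply and only described for the 9 enzymes, since it took part in their choice. Precision is limited by the number of arrays.

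The 9 enzymes and the gene lists were chosen with earlier results of these data known. Named among the other genes are, over the lines, every called gene, and within a line the 5 called genes that rose most and the 5 that fell most. DGUOK, TK2, PROM1, PCNA and MKI67 are named as well, together with the 5 genes most like DCK. Some genes that this rule names are not reported here. NT5M and SLC28A2 were not above the floor on 2 arrays, and PNP was found under its older symbol, NP. Replicate numbers did not pair the arrays, since the deviations of arrays with the same number correlated at -0.0116 to 0.0276 over 15 pairs of populations, 0 of them above 0.1. No arrays held identical values. Alternatives covered the floor, an offset of 100 in place of a floor, the filter, the normalization, the trend, a replicate block, averaged arrays, a random block and each array left out. The comparison of lines within a fraction was added after the data were seen. The limma step was tested on simulated data. Sequences were read in Python 3.11.15 and figures drawn with matplotlib 3.10.9.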

Additional observations from a re-analysis of the deposited data

Results flagged for a closer look

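The difference between CD133+ and CD133- cells itself differed between the 3 lines for 23 of the named genes of nucleotide supply, by limma's F-test of the interaction of line and fraction, which called 44.4% of all genes tested. Many of these genes were named for a large change within a line on the same arrays. That choice favors a call here, so the count is a description and is not comparable with the share of all genes. In purine synthesis and salvage these were GART (adjusted p = 4.11e-05), IMPDH1 (0.000187), PPAT (0.000298), PFAS (0.000358), PRPS2 (0.00225), ADA (0.0037), PAICS (0.00386) and ADSSL1 (0.0488). In pyrimidine synthesis and salvage they were CDA (3.23e-05), UPP1 (0.000631) and DPYD (0.00584). In the thymidylate and folate group they were MTHFD2 (0.000148), DCTD (0.00139) and SLC19A1 (0.00269). Among the reductase partners they were TXNRD1 (5.56e-06) and GLRX (0.0387), and among nucleotide kinases NME3 (1.37e-05), AK3 (0.000712) and CMPK1 (0.00175). NT5C (8.00e-05), NUDT1 (0.0262) and NT5E (0.0263) of the nucleotidase and pool cleaning group and the transporter SLC29A3 (0.0199) completed the list. CDA was not above the floor in KATO-III, nor NT5E in SNU-601, nor DPYD in either of these lines. In those lines the floor left no difference between the fractions to compare, so these 3 calls set measured lines against unmeasured ones. GMPS had log2 differences of 0.43 in KATO-III, 0.40 in SNU-216 and -0.23 in SNU-601, with every array of a fraction on 1 side of the other within each line, and that difference between lines was not tested because the fractions took part in the choice of the gene.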

How the results depend on the processing

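The 18 of 21 differences between lines became 3 with the arrays of each population averaged and 11 with populations as random blocks, and were 16 to 18 with 1 array left out and 17 within either fraction. Within a fraction 7 differences turned their sign, DCK (-0.02, CD133-) and TK1 (-0.04, CD133+) in KATO-III minus SNU-601 with no call over both fractions or in that fraction. The others were DCK in KATO-III minus SNU-216 (0.0510, CD133- arrays) and SNU-216 minus SNU-601 (-0.0692, CD133-), RRM1 in KATO-III minus SNU-601 (0.0425, CD133+), and GMPS in KATO-III minus SNU-601 (0.00731, CD133+) and SNU-216 minus SNU-601 (-0.30, CD133-). The 8 other genes called over the lines became 13 with a floor of 100, 14 with only genes above the floor on all 12 arrays, 3 with no filter, 5 without the trend, 5 with the replicate block, and 0 with averaged arrays (5 at an unadjusted p under 0.05) or with the random block (16), and 2 to 10 with 1 array left out. PRPS1 and GLRX lost their calls only in these last 2 fits among 23 alternatives. The replicate block left 40 of 40 calls in number in KATO-III, 29 of 30 in SNU-216 and 13 of 13 in SNU-601, and the interaction gave 40 in place of 42. With 1 array left out these were 30 to 40, 22 to 29, 9 to 16 and 35 to 41, the sum within lines was 73 to 81, and 4 to 6 of the 9 enzymes had log2 differences above 0 in all lines. Of the 5 genes most like DCK, 0 stayed by Spearman's rank correlation and 3 with a floor of 100. Intensities near the floor limit DTYMK, SAMHD1, CMPK2, HS.551330 and NCRNA00120. Intensities near or below it also limit CDA in KATO-III, DPYD in KATO-III and SNU-601, and ADSSL1 and NT5E in SNU-601.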

Other observations

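DCK and TK1 have counterparts in the mitochondrion, which supply deoxynucleotides for its DNA. DGUOK, the kinase of deoxyguanosine in the mitochondrion, lay between 3676 and 6213 on the 12 arrays, and its log2 difference between CD133+ and CD133- cells was 0.03 over the lines (SE 0.0466, adjusted p = 0.741), with 0.02, -0.07 and 0.13 in KATO-III, SNU-216 and SNU-601. TK2, the thymidine kinase of the mitochondrion, was near background in SNU-216 (40.6 and 30.4 in CD133+ against 17.5 and 13.3 in CD133- cells). In KATO-III it gave 274 and 293 against 268 and 214, and in SNU-601 371 and 347 against 259 and 282, and its difference over the lines was 0.27 (adjusted p = 0.162).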
